A study of Mus musculus with 4 samples.

Results

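The genes described here are 45 genes of synaptic vesicle release and recycling, taken by symbol from the 22376 genes of the mouse spatial data. All 45 had 1 row in each table. They cover 5 synaptotagmins, 2 complexins, 3 Unc13 genes, 5 subunits of the AP2 adaptor, the SNARE proteins and the factors that prime, tether, coat and retrieve vesicles. The members were chosen by name and not by any measured value, although earlier results of these data were known when they were chosen.

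The data came from 8 male mice aged 3 to 4 months, all homozygous for DAT (iCre/iCre), so that Cre is expressed from the dopamine transporter locus. Of these, 3 GqCNO mice received a conditional AAV-hM3Dq-mCherry virus in the midbrain on both sides. They drank clozapine-N-oxide (CNO) at 300 mg/L with 2% sucrose for 1 week. A further 3 GqVeh mice received the virus and sucrose alone, and 2 CNO alone mice were not injected and drank CNO with sucrose. hM3Dq is an engineered receptor that drives firing through Gq when CNO binds it, and all mice were housed singly with a running wheel. Frozen sections of 10 µm were placed on Visium arrays, in which barcoded discs capture the RNA lying above them, and the discs of each mouse were averaged within the substantia nigra (SN), ventral tegmental area (VTA) and thalamus of the midbrain section and the caudoputamen (CP), lateral septum (LSX) and white matter of the striatal section. The same 4 mice shared a midbrain array and a striatal array, here called array pair 1 (GqCNO 801, GqCNO 804, GqVeh 802 and CNO alone C2W2) and array pair 2 (GqCNO 781, GqVeh 784, GqVeh 785 and CNO alone C1W7). Levels are UMIs (captured molecules counted once) per 10000 UMIs of a region in a mouse.

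At a presynaptic terminal, SNARE proteins on the vesicle and the plasma membrane zip together to fuse the membranes. Unc13 proteins prime the vesicle, complexins hold the assembled SNAREs, and synaptotagmins couple fusion to calcium. After release the SNAREs are taken apart by NSF and its adaptors, and membrane is recovered through AP2, clathrin and dynamin. Dopamine neurons use this machinery at axon terminals in the striatum and also release dopamine from their somata and dendrites.

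Depth differed widely between regions. SN held 1 to 7 discs and 7779 to 71906 UMIs per mouse, VTA 2 to 49 discs and 25808 to 350222 UMIs, thalamus 8 to 39 discs (7 mice, without GqCNO 801), LSX 6 to 93, white matter 21 to 72 and CP 357 to 560 discs with 4300381 to 7977003 UMIs. The SN of GqCNO 801 and GqCNO 781 was a single disc each, and that of GqVeh 784 held 11644 UMIs, so that 1 UMI was worth 1.29, 0.679 and 0.859 per 10000 there. The summed level of 8 dopamine neuron markers in control mice was 47.6 to 66.9 in VTA and 0.202 to 0.4 in thalamus. That of 8 striatal projection neuron markers was 76.2 to 90.1 in CP and 3.56 to 5.3 in LSX. The 8 oligodendrocyte markers reached 406 to 879 in white matter. A disc covers several cells, so fewer cells of a type and less RNA per cell cannot be told apart. The SN and VTA discs had been picked for TH-positive somata and dopamine genes, CP discs by Ppp1r1b and white matter discs by Mbp. These genes are not members, but they are in the marker lists. The marker sums in the picked regions are therefore no independent check of the labels. Midbrain and striatal arrays were normalized separately.

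The promoters of the members on which the group comparisons below turn are shown for orientation, as 250 bases before the RefSeq transcript start (GRCm38.p6, minus strand in each case, written 5′ to 3′). Capitals mark the GC box GGGCGG on either strand, the site read by Sp1-type factors. The first, on chr10:109010976-109011225, belongs to Syt1, which has a second listed start. The others lie on chr5:108550028-108550277 and chr8:71671758-71672007.
Syt1: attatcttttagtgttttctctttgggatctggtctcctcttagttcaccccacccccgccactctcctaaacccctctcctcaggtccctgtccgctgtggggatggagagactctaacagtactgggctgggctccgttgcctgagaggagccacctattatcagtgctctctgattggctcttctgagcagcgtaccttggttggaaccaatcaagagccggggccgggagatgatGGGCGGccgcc
Cplx1: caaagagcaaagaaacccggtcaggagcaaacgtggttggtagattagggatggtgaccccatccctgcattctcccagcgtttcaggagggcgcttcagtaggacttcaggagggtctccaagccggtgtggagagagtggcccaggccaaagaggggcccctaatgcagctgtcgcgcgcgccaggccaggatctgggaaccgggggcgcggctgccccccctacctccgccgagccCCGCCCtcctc
Unc13a: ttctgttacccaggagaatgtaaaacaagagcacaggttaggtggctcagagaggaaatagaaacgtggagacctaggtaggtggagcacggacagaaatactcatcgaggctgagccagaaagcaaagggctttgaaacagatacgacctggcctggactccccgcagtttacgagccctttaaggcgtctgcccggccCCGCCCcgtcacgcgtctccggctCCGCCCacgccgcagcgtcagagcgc
Among the 45 listed starts of the 36 members found in the promoter table, 25 (55.6%) held a GC box in this window, beside 32.7% of all 32851 listed promoters. The TATA box TATAAA was in 3 of the 45 (all promoters, 12.4%), and the palindromic cAMP response element TGACGTCA was in 3 (all promoters, 1.55%), those of Ap2b1, Sh3gl2 and Syn1. None of the 3 printed promoters held TATAAA or TGACGTCA. Both strands were searched, no motif contains another, and a match is a description of the sequence alone.

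VTA carried more Sv2c, Syt5 and Syt4 than thalamus and less Syt7, Syn2 and Sv2b, as measured within the 5 control mice. Between VTA and thalamus, 41 members could be tested, of which 8 were higher and 14 lower in VTA (limma, Benjamini-Hochberg adjusted p under 0.05). Over all 7388 genes tested, 11.4% were higher and 13.5% lower in VTA. The median log2 difference of the members was −0.32 and that of all genes −0.0014.

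The synaptotagmins split in both directions. Syt7, a high-affinity calcium sensor of slow and facilitated release, was at 5.47 ± 1.7 in thalamus and 0.873 ± 0.585 in VTA (SD, n = 5 control mice), a log2 difference of −2.17 (SE 0.18, adjusted p = 4.78e-08), and it was lower in VTA in 7 of the 7 mice with both regions. Syt1, the fast sensor of synchronous release, was also lower in VTA, with a level of 5.53 ± 1.1 against 10.2 ± 1.65 and a log2 difference of −0.84 (SE 0.18, adjusted p = 0.00193). Syt4 and Syt5 ran the other way. The level of Syt4, a synaptotagmin that lacks calcium binding in its first C2 domain, was 4.57 ± 1.57 in VTA and 2.02 ± 0.47 in thalamus (log2 difference 0.97, SE 0.2, adjusted p = 0.00143), and Syt5 was 1.62 ± 0.592 against 0.479 ± 0.5 (log2 difference 1.18, SE 0.21, adjusted p = 0.000364). The differences of Syt7 ran from −2.33 to −1.46 over the 7 mice, and those of Syt4 and Syt5 were above 0 in each of them.

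Vesicle membrane proteins were called in both directions too. Sv2c, the SV2 isoform of basal ganglia neurons, had a level of 1.13 ± 0.304 in VTA and 0.0746 ± 0.0703 in thalamus, the largest log2 difference in favour of VTA among the members (1.49, SE 0.17, adjusted p = 3.73e-06), whereas Sv2b was lower in VTA (log2 difference −1.18, SE 0.17, adjusted p = 5.68e-05). Sv2a, the most widespread of the family, was not called (−0.1, SE 0.18). Both complexins were higher in VTA, Cplx2 by 0.75 (SE 0.2) and Cplx1 by 0.59 (SE 0.19) on the log2 scale. Cplx1 was higher in VTA in 4 of 5 control mice.

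Active zone scaffolds and endocytic proteins outside AP2 were called lower in VTA, whereas no AP2 subunit was. Bsn and Pclo, the giant scaffolds of the active zone, differed by −1.03 (SE 0.19) and −0.9 (SE 0.22), and 3 of the 4 endocytic genes outside AP2 were lower, with Sh3gl2 (endophilin A1, which bends the membrane neck) at −0.98 (SE 0.2). The synapsin Syn2 differed by −1.28 (SE 0.19). Of the 5 AP2 subunits only Ap2m1, the cargo-binding µ subunit, was called, and it was higher in VTA (8.44 ± 1.53 against 4.84 ± 0.806, log2 difference 0.74, SE 0.18, adjusted p = 0.00559). The remaining 4 AP2 subunits had log2 differences from −0.43 to 0.4.

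No member separated SN from VTA in the adjusted test. None of the 42 members tested was called in either direction (limma, lowest adjusted p = 0.841), 1 was lower and 0 higher in SN at an unadjusted p under 0.05 (5.28% of all genes in either direction), edgeR called 0, and 0% of all 7121 genes were called in each direction. The log2 differences ran from −0.68 (SE 0.31) for Ap2a2 to 0.55 (SE 0.31) for Sv2b, and the median was −0.03. With standard errors of 0.28 to 0.31, differences of this size were not detectable at this depth.

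**Figure D1:**
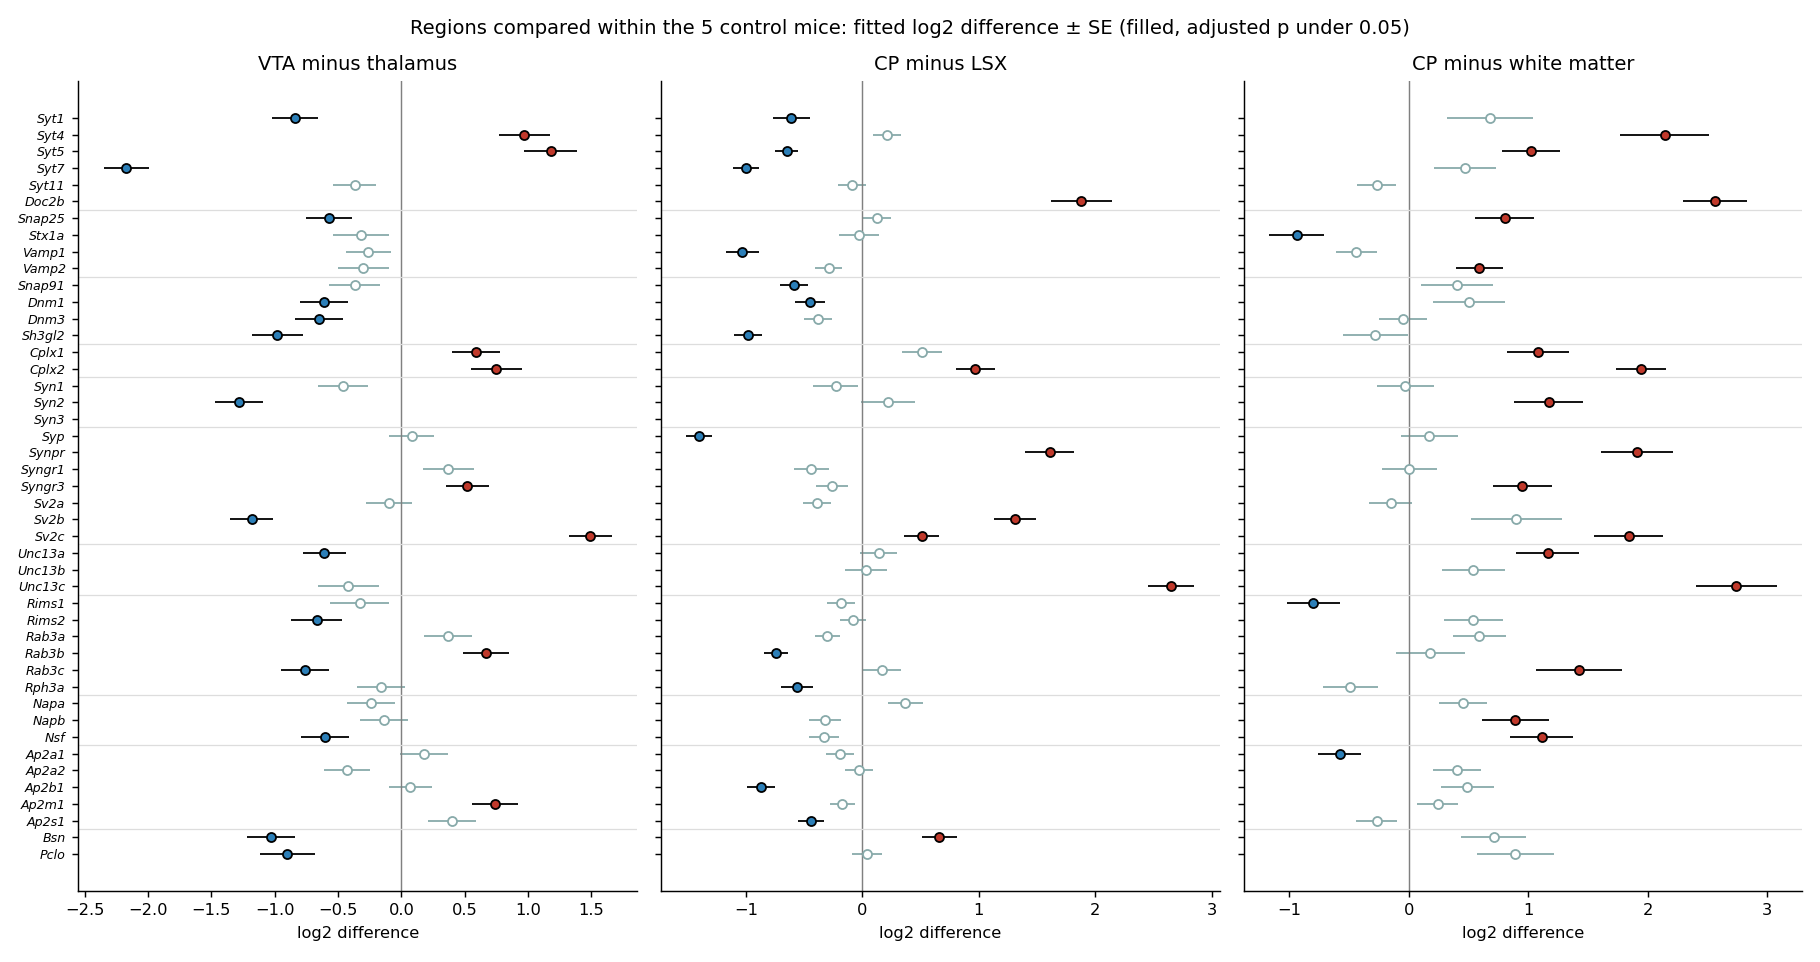
Fitted log2 difference with its standard error for each tested member, between VTA and thalamus, CP and LSX, and CP and white matter, in 5 control mice. Members are grouped by role, the x axes differ in range, and filled points passed an adjusted p under 0.05 (red, higher in the first region; blue, lower). Syt7 and Sv2c mark the ends of the first panel, Syp and Unc13c those of the second.

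In the striatal section, CP was set against LSX and against white matter. Against LSX, 44 members could be tested, and 7 were higher and 12 lower in CP, beside 11.2% and 17.7% of all 11625 genes. The median was −0.19 for the members and −0.06 for all genes. Against white matter 16 members were higher and 3 lower in CP, beside 22.2% and 14.3% of all 11720 genes, with medians of 0.54 and 0.2.

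Unc13c gave the largest difference between CP and either neighbour among the members. Its level in CP was 1.18, 1.3, 2.03, 1.15 and 2.33 in GqVeh 784, 785 and 802 and CNO alone C1W7 and C2W2. In LSX of the same mice it was 0.0931, 0.196, 0.203, 0.207 and 0.391. All values of CP thus lay above all values of LSX, and the log2 difference was 2.65 (SE 0.2, adjusted p = 0.000113). Unc13a and Unc13b, the other priming factors, showed no such difference between CP and LSX (0.14, SE 0.16, and 0.03, SE 0.18), while Unc13a was higher in CP than in white matter (0.796 ± 0.0464 against 0.362 ± 0.211, log2 difference 1.16, SE 0.26, adjusted p = 0.00937).

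Doc2b, a soluble double C2 domain calcium sensor, was likewise higher in CP than in LSX (log2 difference 1.88, SE 0.26) and white matter (2.56, SE 0.27). Its control level was 0.314 ± 0.08 in CP, 0.0573 ± 0.0552 in LSX and 0.012 ± 0.0165 in white matter, with 0 or 1 UMI per control mouse there. The last 2 levels are near or below the added constant of 0.05, so the size of these differences depends on that constant. Synpr, Sv2b and Cplx2 were also higher in CP than in LSX, by 1.61 (SE 0.21), 1.31 (SE 0.18) and 0.97 (SE 0.17). The opposite held for Syp, encoding synaptophysin, an abundant vesicle membrane protein. Its level was 3.73 ± 0.218 in CP and 9.94 ± 0.764 in LSX (log2 difference −1.4, SE 0.11, adjusted p = 0.000113), lower in CP in 8 of 8 mice. Vamp1 (−1.03), Syt7 (−1), Sh3gl2 (−0.98), Ap2b1 (−0.87), Syt5 (−0.65) and Syt1 (−0.61) were lower in CP too, with standard errors of 0.1 to 0.16.

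White matter holds axons and few neuronal somata, and the summed level of 8 general neuronal markers in control mice was 8.69 to 22.1 there and 27.1 to 29 in CP. The members did not fall uniformly with it. Besides Unc13c and Doc2b, the largest differences in favour of CP were those of Syt4 (2.14, SE 0.37), Cplx2 (1.94, SE 0.21), Synpr (1.91, SE 0.3) and Sv2c (1.84, SE 0.29). Stx1a, the plasma membrane SNARE, was higher in white matter (0.656 ± 0.255 against 0.301 ± 0.0446, log2 difference −0.94, SE 0.23), as were Rims1 (−0.8, SE 0.22) and Ap2a1 (−0.58, SE 0.18). The summed level of all members in white matter differed more than 2-fold between mice, from 49.8 to 107.

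Differences of distribution between paralogs were tested directly for 10 pairs, as the change of the log2 ratio of a pair between 2 regions of the same mouse. All 8 mice were used (7 with thalamus), since 5 mice cannot reach p = 0.05 in an exact sign-flip permutation test, and all 40 tests were adjusted together. Of these, 13 passed at an adjusted p under 0.05. The smallest p that the test allows is 0.00781 with 8 mice and 0.0156 with 7.

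The ratio of Syt1 to Syt4 was lower in VTA than in thalamus by 1.98 ± 0.72 (SD of 7 mice; two-sided exact permutation p = 0.0156, adjusted p = 0.0481) and lower in CP than in LSX by 0.85 ± 0.28 (8 mice; exact p = 0.00781, adjusted p = 0.0312), in every mouse. The first mean includes GqCNO mice, in which Syt1 was lower in VTA. The difference of Syt1 between VTA and thalamus was −1.38 and −2.59 in GqCNO 781 and 804 and −1.25 to −0.52 in the controls. Sv2a relative to Sv2b was lower in CP than in LSX by 1.55 ± 0.36. Cplx1 relative to Cplx2 was lower in CP than in LSX by 0.51 ± 0.29 and lower in CP than in white matter by 0.96 ± 0.62. Vamp1 relative to Vamp2 followed the same order, with differences of −0.68 ± 0.31 and −1.15 ± 0.49. Syn1 relative to Syn2 was higher in VTA than in thalamus by 0.72 ± 0.29 and lower in CP than in white matter by 1.02 ± 0.5. Unc13a relative to Unc13b passed in none of the 4 comparisons, and no pair passed between SN and VTA.

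**Figure D2:**
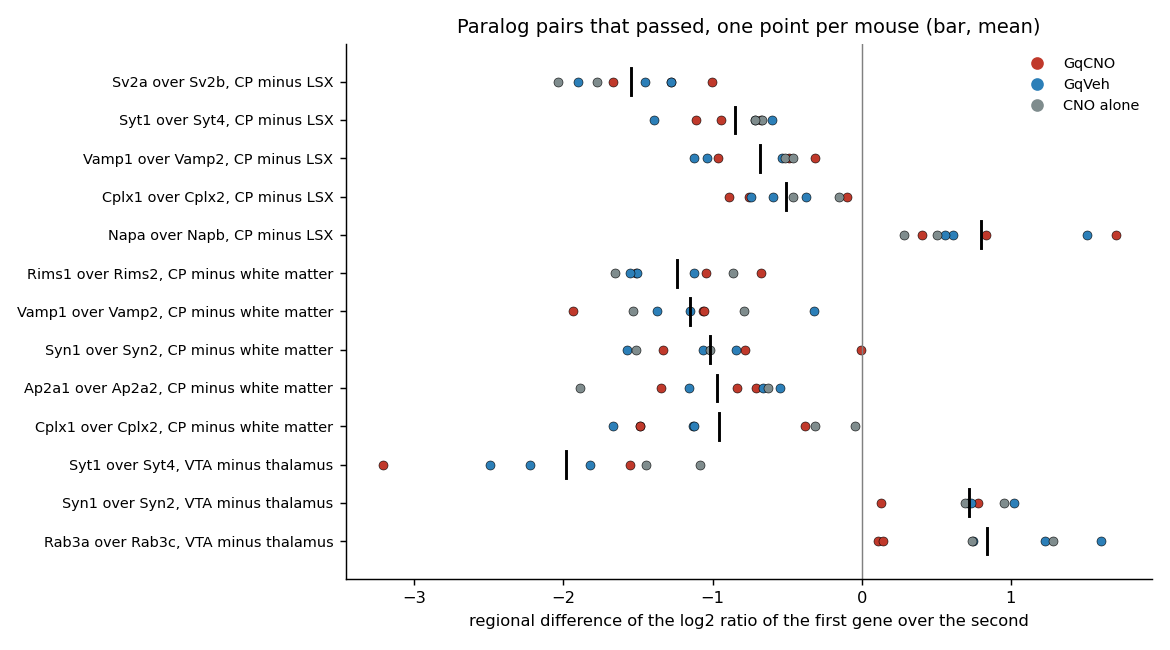
Regional difference of the log2 ratio of 1 paralog over the other, 1 point per mouse coloured by group, for the 13 comparisons that passed. A black bar is the mean over mice, and every mouse of a comparison lies on the same side of 0.

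In the VTA of GqCNO mice, the calcium sensor gene Syt1 and the complexin gene Cplx1 fell, and no member rose. Of 40 members tested in GqCNO against all controls, 2 were called lower and 0 higher, beside 1.52% of all 6312 genes called in either direction. At an unadjusted p under 0.05, 10 were lower and 0 higher, beside 5.99% of all genes lower and 4.82% higher. Against GqVeh alone Syt1 and Cplx1 were called (0.475% of all genes), and against CNO alone Syt1 only (1.12%). The remaining 5 members, Stx1a, Syn3, Synpr, Unc13b and Doc2b, were too low to test.

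The level of Syt1 in VTA was 2.36, 2.34 and 0.995 in GqCNO 781, 801 and 804, from 21, 39 and 4 UMIs. In GqVeh 784, 785 and 802 it was 4.22, 5.42 and 4.8, and in CNO alone C1W7 and C2W2 it was 6.2 and 7. Every GqCNO mouse lay below every control. The log2 difference was −1.37 (SE 0.24, limma adjusted p = 0.00282), −1.61 within array pair 1 and −1 within array pair 2.

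The level of Cplx1, which clamps and then promotes SNARE-driven fusion, was 6.97, 2.82 and 2.98 in the 3 GqCNO mice, 7.26, 15.1 and 12.9 in the 3 GqVeh mice and 11.1 and 8.1 in the CNO alone mice. The groups did not overlap, though GqCNO 781 (6.97) came close to GqVeh 784 (7.26). The log2 difference was −1.32 (SE 0.27, adjusted p = 0.0098), −1.66 within array pair 1 and −0.58 within array pair 2. Cplx1 was no longer called without GqCNO 804 (−1.14, adjusted p = 0.19) or GqCNO 801 (−1.11, adjusted p = 0.0893), whereas Syt1 was called whichever single mouse was left out. Neither gene was called when every gene above 0 was tested (adjusted p = 0.0865 for Syt1 and 0.226 for Cplx1). Without both mice under 5 discs (GqCNO 804 and GqVeh 785), an alternative chosen after seeing the data, Syt1 differed by −1.06 (adjusted p = 0.0198) and Cplx1 by −1.02 (adjusted p = 0.19).

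Other release genes lay lower in GqCNO mice without passing the adjusted test. Cplx2 was at 0.95 ± 0.637 in GqCNO mice and 2.37 ± 0.659 in controls (SD, n = 3 and 5; log2 difference −1.04, SE 0.27, limma adjusted p = 0.0594). Vamp1, a vesicle SNARE, differed by −1.17 (SE 0.32, adjusted p = 0.0744), Ap2a1, the large α subunit of AP2, by −0.89 (SE 0.25, adjusted p = 0.0812), Snap25, the plasma membrane SNARE with a pair of helices, by −0.77 (SE 0.21, adjusted p = 0.086) and Rab3a, the vesicle GTPase, by −0.67 (SE 0.21, adjusted p = 0.174). The level of Snap25 was 7.64, 8.03 and 6.47 in the GqCNO mice, 9.66, 17 and 16.3 in the GqVeh mice and 10.9 and 12 in the CNO alone mice. Ap2a1 was at 1.01, 1.5 and 0.995, then 2.11, 3.49 and 2.11, then 2.37 and 2.95 in the same order. Both genes were thus lower in each GqCNO mouse than in any control.

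Within families the fitted differences varied. For Ap2a2, the other α subunit, the log2 difference in VTA was −0.0023 (SE 0.25), and the 4 AP2 subunits besides Ap2a1 lay between −0.25 and −0.0023. Of the tested synaptotagmins besides Syt1, Syt4 differed by −0.51 (SE 0.29) and Syt11 by −0.41 (SE 0.23), whereas Syt7 (−0.04, SE 0.3) and Syt5 (0.22, SE 0.26) were near 0. Unc13a and Unc13c were at 0.35 (SE 0.31) and 0.03 (SE 0.34). The difference between these paralogs and the called genes was not itself tested.

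**Figure D3:**
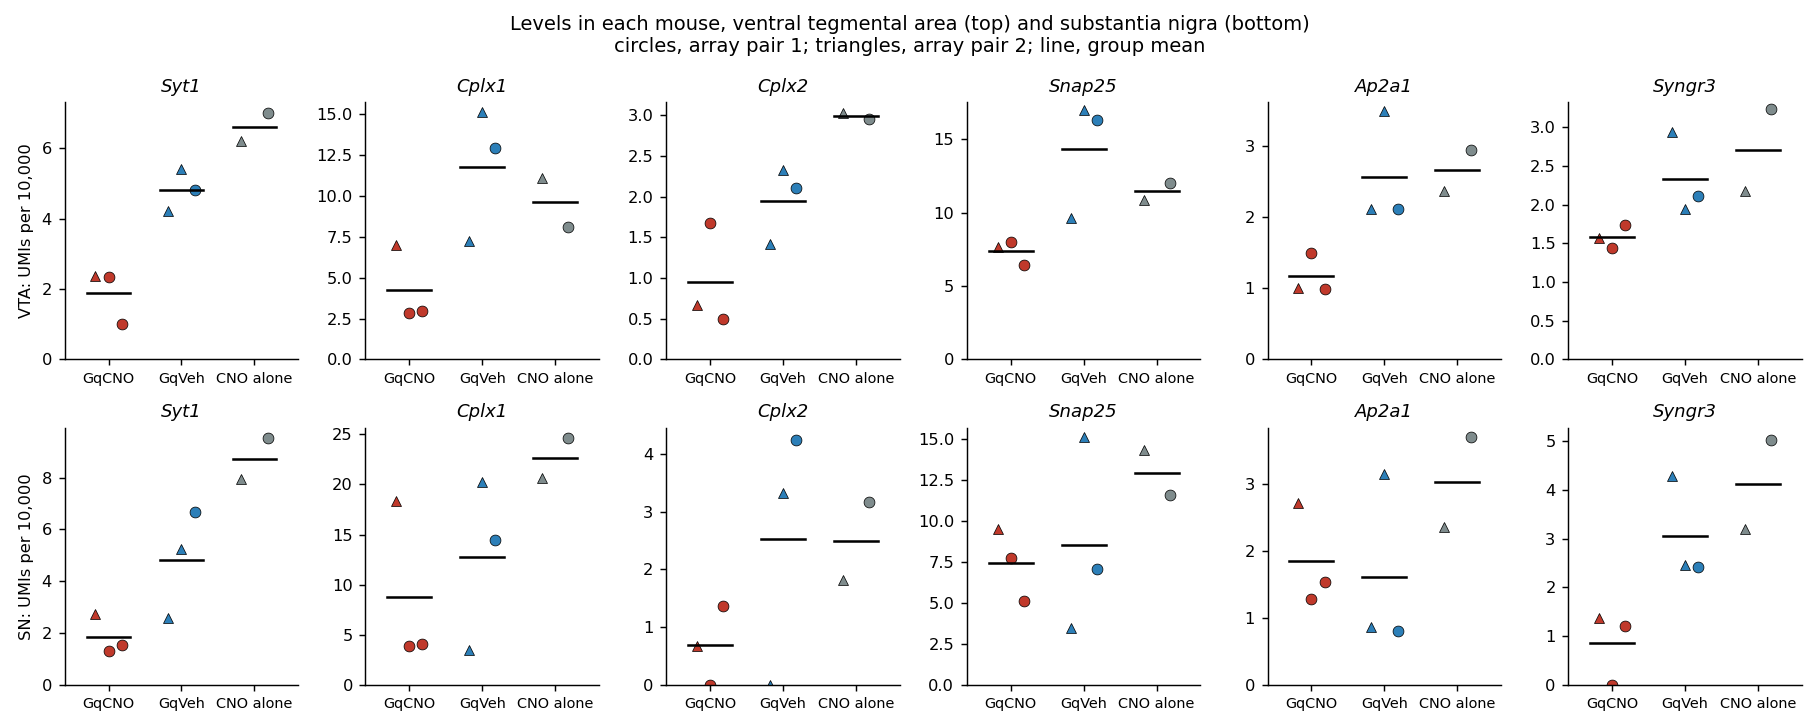
Level of 6 members in each mouse, in UMIs per 10000, in VTA (top) and SN (bottom). Circles are mice of array pair 1, triangles those of array pair 2, and lines are group means. In VTA the red points of Syt1, Cplx1, Snap25, Ap2a1 and Syngr3 lie below all control points, while in SN only Syngr3 is free of overlap among the 6.

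Of the 40 tested members in VTA, 9 were lower in every GqCNO mouse than in every control (Syt1, Snap25, Vamp1, Cplx1, Syngr3, Sv2b, Rab3a, Nsf and Ap2a1), beside 4.86% of all genes tested. For Sv2b, the 0 UMIs of GqCNO 804 allow a level of up to 0.746 (3 UMIs). Its controls ran from 0.294 to 0.412, so its separation is not beyond counting error. The gaps of Syngr3, Nsf and Vamp1 were smaller than 1 UMI of the nearest GqCNO mouse, and are not beyond counting error either. In GqCNO 804, where 1 UMI is worth 0.249, Syngr3 was at 1.74 (GqVeh 785, 1.94) and Nsf at 2.49 (CNO alone C1W7, 2.6). In GqCNO 781, where 1 UMI is worth 0.112, Vamp1 was at 0.899 (CNO alone C2W2, 0.995). Of the 40, 35 had a log2 difference below 0, with a median of −0.28, beside 56.8% of all genes and a median of −0.06. The summed level of all 45 members was 84.1 to 101 in GqCNO mice and 105 to 146 in controls. Syt1, Snap25, Ap2a1, Syngr3 and, for CP, Unc13a had been picked by the study on these mice, so their direction here is not independent evidence.

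Markers of cell types moved along with these genes in VTA. Among 8 general neuronal markers, 2 were called lower (median log2 difference −0.7), and the summed level of the 8 was 17.2 to 29.6 in GqCNO mice and 38.9 to 49.6 in controls. The 2 called were Tubb3 (−0.99) and Uchl1 (−0.88), and Uchl1 alone averaged 22.3 in controls. Rbfox3 (−0.05) and Map2 (−0.11) were near 0. Nefl, Elavl4, Nefm and Thy1 lay between −1.04 and −0.47 and were not called. Among 7 tested microglial markers, 4 were higher (median 1.44, summed level of the 8 listed 19.9 to 48 against 1.55 to 12.7), and 2 of 6 astrocyte markers were higher (median 0.66, summed level 17.1 to 25.7 against 5.42 to 13.8). Discs high in Gfap, Aldh1l1, Aif1 or P2ry12, which are in these glial lists, had been left out by the authors. Dopamine neuron markers fell in 4 of 7 tested (median −1.18), whereas none of 8 oligodendrocyte markers was called (median 0.17). Of all 6312 genes, 76 were called higher and 20 lower. The part of these shifts in the differences of the vesicle genes was not tested.

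In SN, at a far lower depth, no member passed the adjusted test against all controls together. Of 40 members tested, 0 were called by limma in GqCNO against all controls, beside 0.648% of all 6174 genes, edgeR on the recovered UMIs called 1 (Syt1), and at an unadjusted p under 0.05 there were 7 lower and 0 higher, beside 4.39% of all genes lower and 3.43% higher. Against CNO alone, 2 members were called lower, Cplx1 (−1.67, SE 0.4, adjusted p = 0.00631) and Syt1 (−2.02, SE 0.53, adjusted p = 0.0248), beside 0.615% of all genes. Against GqVeh 0 were called, beside 0.194%, and the same genes differed by −0.56 (SE 0.36, adjusted p = 0.806) and −1.15 (SE 0.47, adjusted p = 0.78). The 5 untested members were Stx1a, Syn3, Unc13b, Unc13c and Doc2b, the last with 0 UMIs in every SN. The median was −0.32 for the members and −0.08 for all genes.

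Syngr3, a synaptic vesicle protein that associates with the dopamine transporter, gave the lowest p in SN. Its level was 1.36, 0 and 1.2 in GqCNO 781, 801 and 804 (2, 0 and 7 UMIs), 4.29, 2.46 and 2.42 in GqVeh 784, 785 and 802 and 3.2 and 5.02 in the CNO alone mice. No GqCNO mouse reached a control, although the 0 UMIs of GqCNO 801 allow a level of up to 3.86 (3 UMIs, counting error only), above some controls. The log2 difference was −1.72 (SE 0.49, adjusted p = 0.0555), and in VTA the same gene differed by −0.5 (SE 0.24, adjusted p = 0.458).

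The level of Syt1 in SN was 2.72, 1.29 and 1.54 in the GqCNO mice, 2.58, 5.26 and 6.66 in the GqVeh mice and 7.93 and 9.51 in the CNO alone mice. The overlap came from GqVeh 784 alone, whose SN held 3 UMIs of Syt1. The log2 difference was −1.49 (SE 0.42, adjusted p = 0.0578). Leaving out each mouse in turn gave −1.76 to −1.32, with an adjusted p of 0.00194 without GqVeh 784 and 0.00871 without GqCNO 781, and no call without any other mouse (up to 0.681, without CNO alone C2W2). Cplx1 in SN was at 18.3, 3.86 and 4.11 in the GqCNO mice and 3.44 to 24.6 in the controls (log2 difference −1.01, SE 0.32, adjusted p = 0.172). Leaving out GqVeh 784 gave −1.48 with an adjusted p of 0.000222 and leaving out GqCNO 781 gave −1.7 with 0.000111, while no other mouse left out gave a call. Without GqCNO 801 it was −0.64 (adjusted p = 0.753), without GqCNO 804 −0.68 (0.533) and without CNO alone C2W2 −0.81 (0.932).

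In SN the log2 differences of Snap25 and Ap2a1 were −0.32 (SE 0.34, adjusted p = 0.815) and −0.07 (SE 0.49, adjusted p = 0.976), and the sign of Ap2a1 changed when GqCNO 801, GqCNO 804, GqVeh 785 or CNO alone C2W2 was left out or the array pair was a block. Of the 40 tested members, 2 (Syngr3 and Sv2b) were lower in every GqCNO mouse than in every control, beside 3.76% of all genes. Sv2b had 0 UMIs in the 3 GqCNO mice, which allows levels of up to 2.04, 3.86 and 0.514 in GqCNO 781, 801 and 804, and its controls ran from 0.278 to 1.82, so its separation is not beyond counting error. Of the general neuronal markers in SN, 0 of 8 were called (median −0.68), 3 of 8 dopamine neuron markers were lower (median −1.09), and 2 of 7 tested microglial markers were higher (median 1.22). Of 6 astrocyte markers 1 was higher (Gfap, 2.58, adjusted p = 2.6e-06; median of the list 0.07), with a summed level of 14.3 to 31 in GqCNO mice and 7.4 to 16.7 in controls. The part of these shifts in the differences of the vesicle genes was not tested.

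Whether SN and VTA responded differently was tested within mice. Of 41 members, 0 were called by limma (lowest adjusted p = 0.786), and 0% of all 7145 genes were called. An unadjusted p under 0.05 was seen for 3 members (1 higher, 2 lower), beside 5.99% of all genes. The responses of the 2 regions were therefore not distinguishable at this depth, and both rest on the same mice.

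The study asked a gene to differ from each of the control groups at an unadjusted p under 0.05, in a test on each gene alone. With that threshold in the limma fit, 3 members passed in SN, all lower (Syngr3, Syt1 and Syn1), beside 1.28% of all genes lower and 1.04% higher. In VTA 6 passed, all lower (Cplx2, Snap25, Rab3a, Cplx1, Syt1 and Ap2a1), beside 1.57% lower and 2.33% higher. In CP 1 passed (Unc13a, lower), beside 0.425% lower and 0.277% higher. The p-values of this rule are not adjusted. With the methods' test in place of limma, 1 member passed in SN (Syngr3), 2 in VTA (Snap25 and Syt1) and 1 in CP (Unc13a).

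The control groups were also set against each other. Between GqVeh and CNO alone, limma and edgeR each called 0 members in SN, VTA and CP, beside 0.0648%, 0.0792% and 0% of all genes. At an unadjusted p under 0.05, 2 members were lower in GqVeh mice in SN (Cplx1 at −1.1 and Rab3c at −1.25), 0 in VTA and 1 in CP (Sv2c at −0.51), beside 1.46%, 2.04% and 3.68% of all genes in either direction. The median of the members was −0.49 in SN, −0.1 in VTA and −0.05 in CP. In SN the median of GqCNO against GqVeh was −0.13 and that of GqCNO against CNO alone −0.62, comparisons that share the GqCNO mice.

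**Figure D4:**
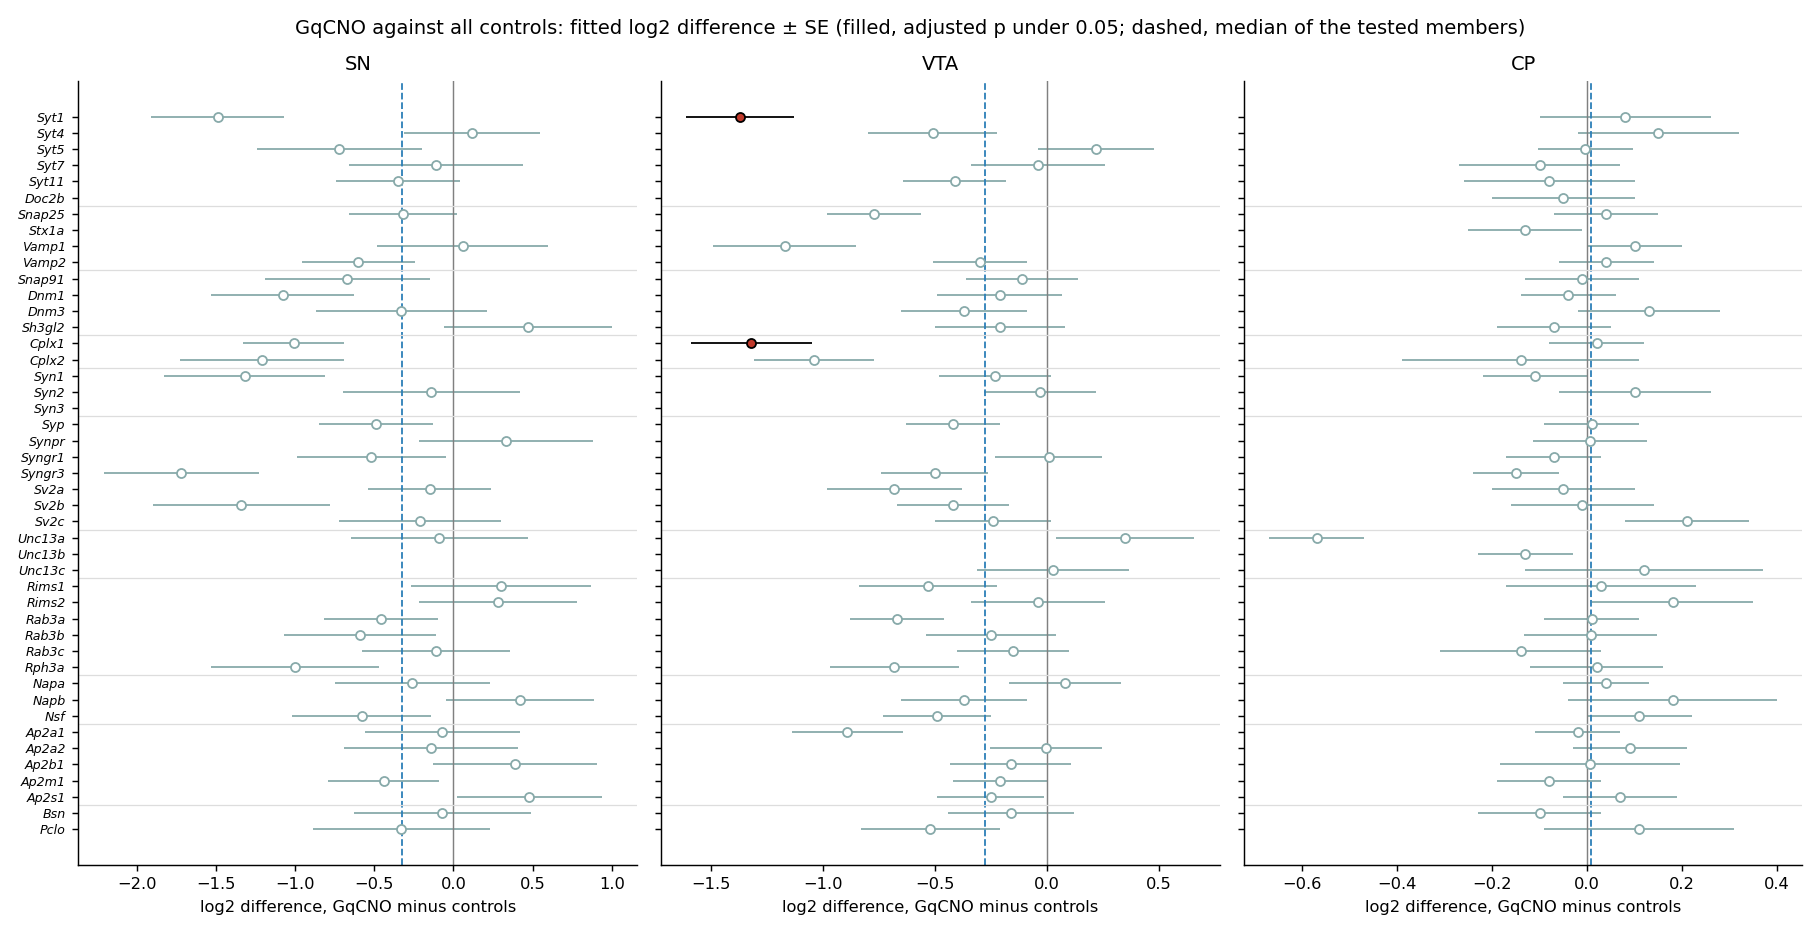
Fitted log2 difference with its standard error, GqCNO minus all controls, for the tested members in SN, VTA and CP. Members are grouped by role, filled points passed an adjusted p under 0.05, the dashed line is the median of the tested members, and the x axes differ in range. Syt1 and Cplx1 in VTA are filled, and Unc13a stands alone in CP.

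In CP, the main target of midbrain dopamine axons, Unc13a was the only one of 44 tested members lower in every GqCNO mouse than in every control. Of all 10813 genes tested, 1.64% were lower in this way, so the count itself is near that share. Unc13a encodes Munc13-1, the main priming factor of forebrain synapses. Its level was 0.473, 0.521 and 0.57 in GqCNO 781, 801 and 804, from 295, 261 and 245 UMIs. In the controls it was 0.782, 0.782 and 0.872 in GqVeh 784, 785 and 802 and 0.746 and 0.801 in CNO alone C1W7 and C2W2. The groups were separated by a gap wider than the spread within either of them.

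The log2 difference of Unc13a was −0.57 (SE 0.1), with an unadjusted p of 0.000117, which ranked 4 among 10813 genes but gave an adjusted p of 0.317 in limma. With the array pair as a block the difference was −0.61 (SE 0.08) and the adjusted p 0.00028, in a fit that called 0.435% of all genes. Within array pairs 1 and 2 it was −0.57 and −0.65. In the fit without the block, 0 of 44 members and 0% of all genes were called (edgeR, 0 members), an unadjusted p under 0.05 was seen for 1 member (lower) beside 3.7% of all genes, and the member median was 0.0072 beside −0.0011. Of the 44, 1 was lower in every GqCNO mouse than in every control, beside 1.64% of all genes.

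The fitted differences of the other Unc13 genes in CP were nearer to 0. Unc13b was at 0.0455 ± 0.00779 in GqCNO mice and 0.0541 ± 0.00574 in controls (log2 difference −0.13, SE 0.1) and Unc13c at 1.72 ± 0.5 and 1.6 ± 0.546 (0.12, SE 0.25). The level of Unc13b is close to the added constant of 0.05, which understates its changes. The difference between these paralogs and Unc13a was not itself tested. The 14 other tested genes lying within 250 kb of Unc13a on either side had log2 differences between −0.16 and 0.23 in CP, with a smallest unadjusted p of 0.0748. Elsewhere, Unc13a differed by −0.26 (SE 0.26) in LSX, −0.69 (SE 0.43) in white matter, −0.22 (SE 0.23) in thalamus, −0.09 (SE 0.56) in SN and 0.35 (SE 0.31) in VTA, none of them called. Summed general neuronal markers in CP were 25.4 to 27.2 in GqCNO mice and 27.1 to 29 in controls, and none of the 8 was called.

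**Figure D5:**
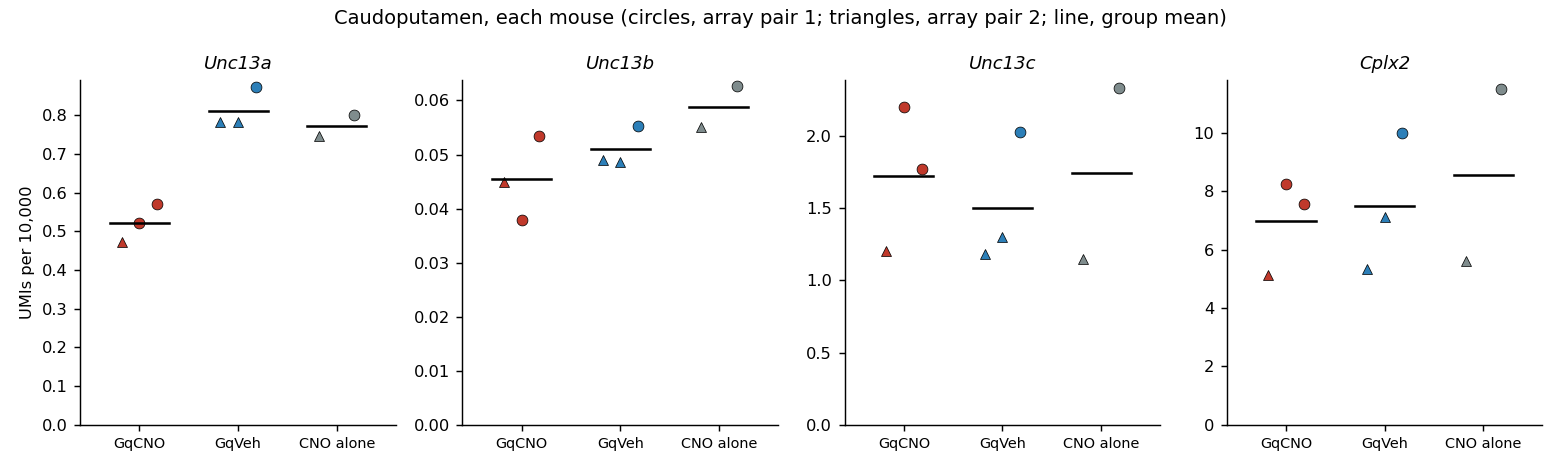
Level of the 3 Unc13 genes and Cplx2 in the CP of each mouse, in UMIs per 10000. Circles are mice of array pair 1, triangles those of array pair 2, and lines are group means. The 3 GqCNO points of Unc13a lie below all 5 control points, while Unc13c and Cplx2 separate circles from triangles.

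The array pair separated many vesicle genes in CP. Of 44 members, 21 were higher in each of the 4 mice of array pair 1 than in each of the 4 mice of array pair 2, beside 16.9% of all genes, and 2 (Rab3b and Ap2m1) were lower in each, beside 8.98%. Cplx2 ran from 7.56 to 11.5 on array pair 1 and from 5.12 to 7.13 on array pair 2, Unc13c from 1.77 to 2.33 against 1.15 to 1.3, and Syt1 from 4.12 to 4.7 against 2.79 to 3.21. Unc13a was not among the 21 (0.521 to 0.872 against 0.473 to 0.782). Each array pair held mice of all 3 groups in unequal numbers. In the labels, every mouse of array pair 1 also carries C2 and every mouse of array pair 2 carries C1. The arrays and this label cannot be told apart.

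No member was called in GqCNO against all controls in the regions away from the dopamine neurons and their main target. In thalamus 39 members were tested and 0 called, beside 0% of all 6399 genes, and an unadjusted p under 0.05 was seen for 3 (1 higher, 2 lower), beside 3.34%. In LSX 0 of 43 were called, beside 0% of 11036 genes, and 2 (1 higher, 1 lower) had an unadjusted p under 0.05, beside 3.19%. In white matter 0 of 43 were called, beside 0.0367% of 10902 genes, and 0 had an unadjusted p under 0.05, beside 2.96%. edgeR called 0 members in each of the 3 regions, and the member medians were −0.08, 0.01 and −0.0053. The last pools control groups that differed. In white matter the member median of GqVeh against CNO alone was 0.39 (all genes, 0.06), with 35 of 43 above 0 and 0 called. That of GqCNO was −0.18 against GqVeh and 0.14 against CNO alone.

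The wider vesicle machinery, a list of 46 further genes that includes other synaptotagmins, Munc18, clathrin, dynamin 2 and vesicular transporters, was counted in the same fits. In GqCNO against all controls, 1 of 32 tested genes was called in VTA (Slc18a2, the vesicular monoamine transporter, lower), 0 of 32 in SN and 0 of 40 in CP, with medians of −0.19, −0.13 and −0.00065. Of all genes tested, 1.52%, 0.648% and 0% were called in these regions, in the same order. Between regions of control mice, 5 were higher and 3 lower in VTA than in thalamus (37 tested), beside 11.4% and 13.5% of all genes. Among them, Slc18a2 and Slc32a1 were higher and Slc17a6 and Slc17a7 lower. Between CP and LSX 7 were higher and 14 lower in CP (45 tested), beside 11.2% and 17.7% of all genes. Between CP and white matter 12 were higher and 9 lower in CP (43 tested), beside 22.2% and 14.3%. Slc18a2 was also among the genes used to pick the midbrain discs.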

How the data were processed

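Per the labels and the study's methods, the authors sequenced Visium v1 libraries, aligned them with Space Ranger to mm10, assigned discs to regions and deposited, for each array, the mean median-normalised signal per gene, region and mouse. Discs in SN and VTA held TH-positive somata, and glia-rich discs had been left out. Every low value of the deposited signal was a whole multiple of 1 step (100% within 0.05 of a step), so UMI counts were recovered and rescaled to 10000 per region and mouse. Levels were tested as log2(level + 0.5) in midbrain and log2(level + 0.05) in striatal regions, which understates changes of low genes, over genes with a mean of at least 0.25 or 0.05, in limma 3.58.1 (R 4.3.3, trended eBayes) with Benjamini-Hochberg adjustment over all genes tested. Group fits held 3 means; region contrasts used differences within the 5 control mice. Counting floors were 3 UMIs per mouse and region. Labels do not say which sections were cut together, and each mouse is 1 replicate.

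The members and lists were chosen with earlier results of these data known. All 45 members could be named, with values by mouse for those the study picked, for the 4 subfamilies where a comparison turned on them, and for up to 6 called members per direction or 3 of smallest p. Alternatives were other constants (0.1 or 0.01, 1 or 0.2), no filter, the deposited signal unscaled, TMM scaling, edgeR 4.0.16 on recovered UMIs, each mouse left out, the array pair as a block, all mice in region contrasts and the methods' t-test. On simulated counts, the VTA fit recovered 31% of genes changed 2-fold and 98% of those changed 4-fold (6157 genes tested), the SN fit 6% and 51% (6145 genes) and the CP fit 78% and 100% (10737 genes). Promoter sequences came from RefSeq (GRCm38.p6).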

Additional observations from a re-analysis of the deposited data

Results flagged for a closer look

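The regional differences of the synaptotagmins, complexins, Unc13 and AP2 genes gave 58 sets of 5 control values. When each was examined for 1 mouse far from the rest, 4 sets held one. Chance gives about 1 in 20 sets, and 4 of 58 is near that share, so the 4 are listed as description only. Between VTA and thalamus, the log2 difference of Syt11 was −0.59 in GqVeh 784 and −0.33 to −0.3 in the other control mice, and that of Unc13c was −1.88 in GqVeh 802 and −0.18 to 0.17 in the others. Between CP and white matter, Syt4 differed by 4.02 in GqVeh 785 and by 1.53 to 1.76 in the others, and Syt5 by 0.15 in GqVeh 784 and by 1.06 to 1.38 in the others. The direction of Syt4 and Syt5 was the same in all 5 control mice.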

How the results depend on the processing

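A larger constant, TMM scaling and the deposited values without rescaling left every count of members within 1.5 times its value, though single members crossed: past both control groups in VTA, Rab3a was lost with the deposited values and with TMM scaling, which added Vamp1. In SN, where 0 members were called, the smaller constant called 1 (Syngr3), edgeR 1 (Syt1) and the fit without the mice under 15000 UMIs, chosen after seeing the data, 2 (Cplx1 and Syt1). Past both control groups in SN, 3 members became 5 with edgeR, 7 without those mice and 1 with the methods' t-test. In VTA, 2 called members became 1 with the smaller constant, 0 with no filter and 1 without the mice under 5 discs, and the 6 past both control groups became 3 with edgeR and 2 with the methods' t-test. With the array pair as a block, CP had 1 called member instead of 0 and 3 past both control groups instead of 1. Between VTA and thalamus, 22 called members became 11 with the smaller constant and 14 with no filter. The difference of Ap2a1 in SN, −0.07, was 0.1 without GqCNO 801, 0.0035 without GqCNO 804, 0.08 without GqVeh 785, 0.13 without CNO alone C2W2 and 0.03 once the array pair was blocked, with a range of −0.32 to 0.13 over the mice left out. The causes were not tested.

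Leaving out each mouse in turn gave 0 to 4 called members in SN (4 without GqVeh 784, 3 without GqCNO 781), 1 to 7 past both control groups there, 1 to 4 called in VTA (1 without GqCNO 804, 4 without GqVeh 784), 4 to 9 past both there, 14 to 23 between VTA and thalamus (14 without GqVeh 784), 13 to 24 between CP and LSX, 14 to 23 between CP and white matter and 0 to 14 paralog comparisons. The last fell to 0 when any mouse except GqCNO 801 was left out, since fewer mice raise the smallest p that the exact test allows. No paired analysis was possible because no mouse number occurs in more than 1 group, so that numbers pair no mice across groups. The array pair, which holds mice of all groups, was used as a block, and regions were compared within mice.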
